A study of Rattus norvegicus with 6 samples.

Results

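The proteasome genes were 46 of the 14217 genes that could be read on the arrays, and they were chosen by name: each gene symbol starts with Psma, Psmb, Psmc, Psmd, Psme, Psmf or Psmg followed by a digit, and at least 1 probe set on the array carries that symbol alone. A probe set is a group of short probes along 1 transcript. The value of a gene was the mean of its probe sets, 60 in all, with 37 genes read by 1 probe set, 4 by 2 and 5 by 3. Of the 46, 44 encode subunits, regulators or assembly chaperones of the proteasome, and the other 2, Psmc3ip and Psme3ip1, are named after a subunit that their protein binds. Psma8, Psmb6, Psmb11 and Psme3 had no probe set of their own and were not analysed here.

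The tissue was the contralateral prelimbic cortex (PL) of male Sprague Dawley rats, 6 to 7 weeks old when acquired and sampled 14 days after surgery on the left sciatic nerve. In the spared nerve injury (SNI) group, the tibial and common peroneal branches were cut and the sural branch was left whole; in the control group, the nerves were exposed and not cut. Both groups were operated under anesthesia, isoflurane in the sample labels and pentobarbital in the methods. Each group had 3 samples, and neither the labels nor the methods say whether a sample came from 1 rat or a pool, so the p-values rest on a spread between samples that may be technical. The deposited values are log2 signals given relative to each probe set's own median, so the sign of a value tells whether a sample lay above or below that median, and no level can be read or compared between genes. For the same reason, the presence of the labelled tissue could not be checked from its markers.

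The proteasome is the protease that degrades proteins tagged with ubiquitin. Its core particle is a barrel of alpha and beta rings, with the cutting sites inside the beta rings, and its regulatory cap binds, unfolds and deubiquitinates substrates at the barrel's ends. Interferon replaces the catalytic beta subunits with those of the immunoproteasome, which favours peptides for MHC class I, and dedicated chaperones assemble the rings. In neurons, proteasomes act in synaptic plasticity and protein quality control.

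Proteasome mRNAs tended to be lower in the PL of the SNI group, by small amounts. Of the 46 genes, 39 (84.8%) had a log2 difference, SNI minus control, below 0, against 54.8% of all genes. Across 13 refits described below, 25 of the 46 (54.3%) kept the same sign. The median difference was −0.09, against −0.01 over all genes, and the range was −0.62 to 0.07. None of the 46 passed an adjusted p of 0.05 (limma, Benjamini-Hochberg over 14217 genes), nor did any other gene (0% of all genes; the methods' t-test also called 0). At an unadjusted p under 0.05, 14 of the 46 (30.4%) were lower, where 9.19% of all genes were, and none was higher, where 3.96% of all genes were. Over all genes, 1870 passed this limit with limma and 1787 with the methods' t-test. Every SNI sample lay under every control sample for 18 of the 46 (39.1%), as for 13.7% of all genes, and the reverse held for none, against 6.39% of all genes. With 3 samples a group, an exact permutation test cannot give a p under 0.1.

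The highest values lay mostly in control samples 1 and 3. In the values of single samples, control sample 3 was the highest of the 6 for 18 genes and control sample 1 for 14, which makes 32 of 46 (69.6%), against 40.7% of all genes. The median over the 46 genes was 0.06 in control sample 1, 0.0084 in control sample 2 and 0.05 in control sample 3, and −0.03, −0.02 and −0.02 in SNI samples 1, 2 and 3. Control sample 2 therefore lay closest to the SNI group. Control samples 1 and 3 also stood apart over all probe sets, at 21.95 and 16.04 on the first principal component (35.8% of the variance), with control sample 2 at −6.18 and the SNI samples between −11.3 and −9.81. With both left out (an alternative added once the values were known), 5 of 46 genes (10.9%) were lower at an unadjusted p under 0.05, the same share as among all genes (10.9%), and the median difference was −0.06 against −0.03 over all genes. In that fit the remaining control sample is assumed to vary like the SNI samples. Control sample 2 alone lay above all 3 SNI samples for 24 of the 46 (52.2%, against 41.2% of all genes) and below all 3 for 7 (15.2%, against 24%). The count of lower genes also depended on single samples of either group: it was 4 without control sample 3, 6 without control sample 1, 5 without SNI sample 1 or SNI sample 3, 6 without SNI sample 2, and 16 without control sample 2.

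**Figure D1:**
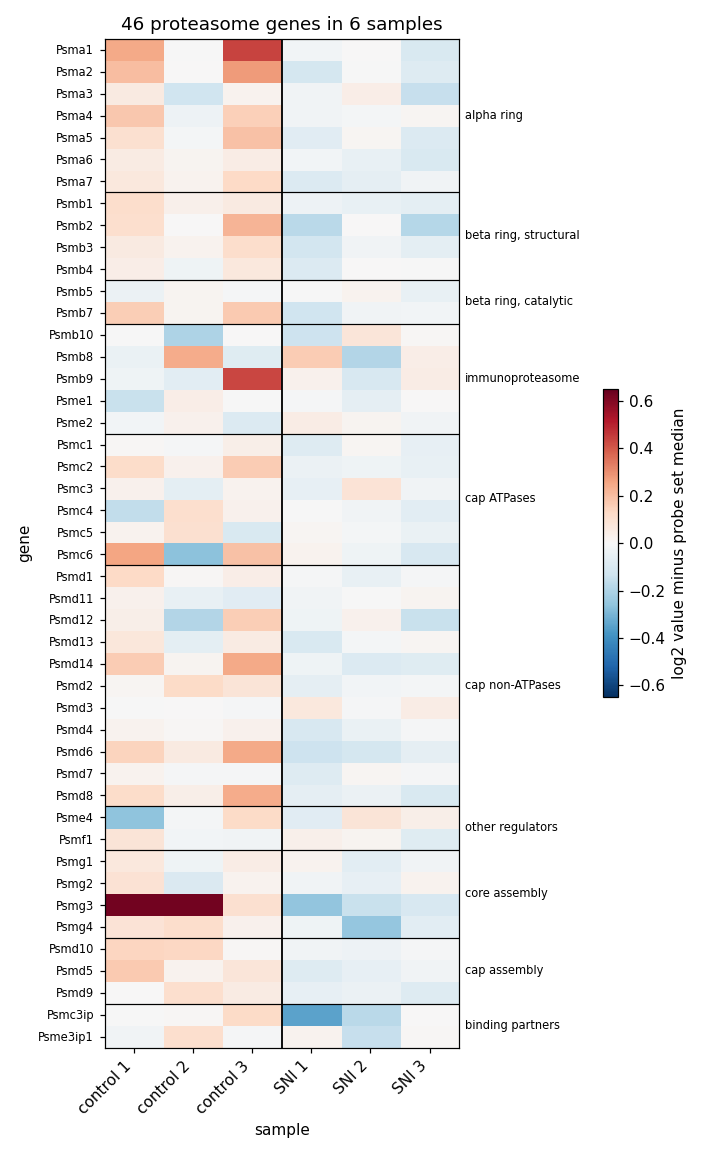
Log2 value of each of the 46 proteasome genes (rows, grouped by role) in each of the 6 samples (columns), relative to its probe sets' medians; red is above and blue below. The warm colors gather in control samples 1 and 3, which hold the highest value for 32 of the 46 genes, and Psmg3 is at 0.63 in both control samples 1 and 2.

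The means of spike-in controls, RNA quality measures and cell type markers differed between the groups as well. The 18 hybridization controls, which are bacterial spike-ins, averaged 0.11 ± 0.07 in SNI samples and −0.16 ± 0.10 in control samples (SD, n = 3 each). The 24 poly-A controls, added before labelling, averaged 0.08 ± 0.04 and −0.17 ± 0.19. The signal at the 3′ end minus that at the 5′ end was higher in the SNI group by 0.07 for GAPDH, 0.07 for beta-actin and 0.09 for hexokinase. The SDs in SNI and control samples were 0.03 and 0.06, 0.07 and 0.07, and 0.13 and 0.09. The groups overlapped for each. With the mean of the hybridization controls as a covariate, the median difference of the 46 genes was −0.10, with 1 gene lower (Psmg3) and 1 higher (Psme4, log2 difference 0.52) at an unadjusted p under 0.05. The same fit took the lower share of all unadjusted calls from 69.9% to 52.2%. These controls did not overlap between the groups (0.05 to 0.19 in SNI samples, −0.22 to −0.05 in control samples). SEs were larger in this fit, for Psmb2 0.18 against 0.08 and for Psmb7 0.15 against 0.07. Fewer calls here therefore cannot be told apart from lost precision. For the markers, the shares over all genes are again 54.8% below 0, 9.19% lower and 3.96% higher. Of 11 neuron markers, 9 were below 0, and at an unadjusted p under 0.05, 2 (Snap25 and Syt1) were lower and 1 (Map2) was higher. The mean of these markers was 0.07, −0.02 and 0.16 in control samples 1, 2 and 3 and between −0.10 and −0.0092 in the SNI samples, so control samples 1 and 3 were again the highest. Of 12 microglia markers, 11 were above 0 and 7 were higher at an unadjusted p under 0.05, with means of 0.06 to 0.14 in the SNI samples and −0.16 to −0.07 in the control samples. The astrocyte list had 7 of 8 markers above 0, the endothelium list 6 of 7 and the oligodendrocyte list 1 of 7, and both blood genes, Hbb and Alas2, were higher by 0.49 and 0.44. The mean of the oligodendrocyte markers was 0.13, −0.15 and 0.27 in control samples 1 to 3 and between −0.10 and 0.0083 in the SNI samples. Control samples 1 and 3 were thus the highest there too. In the microglia, astrocyte, endothelium and blood lists an SNI sample had the highest mean. The part of the poly-A controls, the 3′ to 5′ differences and the cell type markers in the proteasome values was not tested, and in bulk tissue fewer cells of a type and less RNA per cell cannot be told apart.

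**Figure D2:**
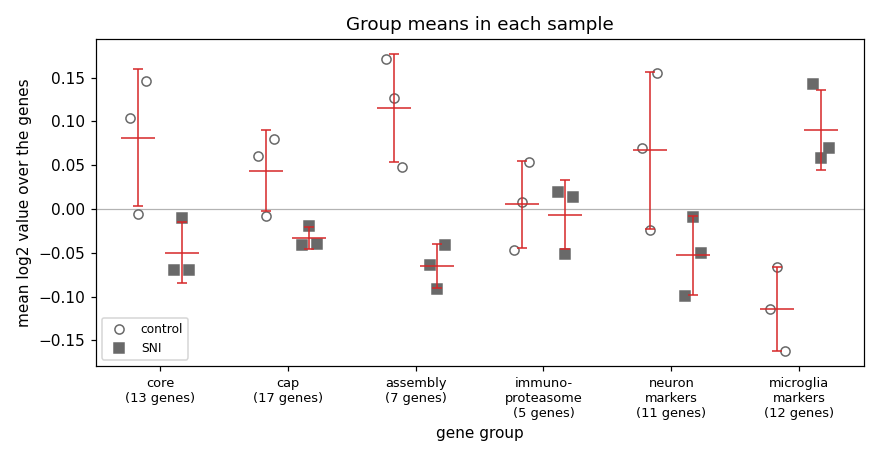
Mean log2 value over the genes of each group (y axis) in each sample, for core subunits, cap subunits, assembly chaperones, the immunoproteasome and the markers of neurons and microglia (x axis). Open circles are control samples 1 to 3 from left to right, filled squares SNI samples 1 to 3, bars the mean and error bars the SD. Control sample 2 lies at −0.0052 for the core and −0.0083 for the cap, just above the SNI samples, while the assembly chaperones, Psmg3 among them, lie higher in all 3 control samples than in any SNI sample and the immunoproteasome overlaps.

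All 13 core subunits outside the immunoproteasome were below 0 (54.8% of all genes were), with a median of −0.13, though Psmb5 was so by only −0.00011. At an unadjusted p under 0.05, 6 were lower, against 9.19% of all genes. Per sample their mean was 0.10, −0.0052 and 0.15 in control samples 1 to 3 and −0.07, −0.01 and −0.07 in SNI samples 1 to 3, so all SNI samples lay under all control samples, but SNI sample 2 and control sample 2 were nearly equal.
In the alpha ring, which gates entry to the core, the difference ran from −0.26 to −0.03 over 7 genes. Psma1 was at 0.25, −0.0043 and 0.44 in control samples 1 to 3 and at −0.02, 0.0043 and −0.10 in SNI samples 1 to 3. Its difference of −0.26 (SE 0.11, limma adjusted p = 0.340) came from control samples 1 and 3, and the groups overlapped, with SNI sample 2 above control sample 2. Without these 2 control samples it was −0.03. Psma2 was at 0.20, 0.0029 and 0.27 in the control samples and at −0.11, −0.0029 and −0.08 in the SNI samples, a difference of −0.23 (SE 0.08, adjusted p = 0.297) with groups that did not overlap. It was at −0.07 without control samples 1 and 3. Psma7 was lower at an unadjusted p under 0.05 as well (−0.13), while Psma3 was at −0.03. A probe set annotated to both Psma3 and a gene named Psma3l was not used. Whether the probe set read for Psma3 also takes signal from Psma3l was not tested.

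Among the beta subunits without a cutting site, Psmb2 was at 0.11, 0 and 0.22 in the control samples and at −0.17, 0 and −0.18 in the SNI samples. Sample 2 of each group sat at the median, so the groups touched there, and the difference was −0.23 (SE 0.08, adjusted p = 0.291). Psmb3 had a difference of −0.13 (SE 0.06, adjusted p = 0.366), Psmb1 one of −0.12 and Psmb4 one of −0.06. Psmb7, the subunit with trypsin-like activity, was at 0.16, 0.02 and 0.17 in the control samples and at −0.13, −0.02 and −0.02 in the SNI samples. Its groups did not overlap, with a difference of −0.17 (SE 0.07, adjusted p = 0.326). Psmb5, the subunit with chymotrypsin-like activity, lay between −0.05 and 0.02 in all 6 samples, with a difference of −0.00011 (95% confidence interval −0.12 to 0.12). The 3 probe sets of Psmb5 disagreed, at −0.12, 0.0080 and 0.11. The first had every SNI sample below, and the last every SNI sample above, every control sample. The last is of a type whose probes can also bind other transcripts, and it has the smallest SD within groups of the 3; taken alone, it puts Psmb5 at 0.11 (limma unadjusted p = 0.0475, adjusted p = 0.329), so the value near 0 rests on the averaging.
The antioxidant response element is the sequence through which the stress factors Nrf1 and Nrf2 act on proteasome genes. Its core was searched as TGACNNNGC on both strands, from 250 bases before to 50 after the start. It was found in 7 of the 42 members with a RefSeq promoter (16.7%) and in 12.1% of all 33469 promoters of that length. It was in 0 of the 5 immunoproteasome promoters and in 7 of the 37 others. With only 5 promoters, this absence does not set the immunoproteasome apart from all promoters. Shown here are the stretches from 130 bases before to 20 after the start of Psmb2 (chr5:144254928-144255077, plus strand) and Psmb5 (chr15:32047360-32047509, minus strand), build GRCr8, 5′ to 3′, as 2 core particle genes that hold the element's core, in capitals.
Psmb2: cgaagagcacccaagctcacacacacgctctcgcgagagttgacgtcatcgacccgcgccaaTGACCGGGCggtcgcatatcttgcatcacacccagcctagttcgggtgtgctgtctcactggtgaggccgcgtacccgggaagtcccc
Psmb5: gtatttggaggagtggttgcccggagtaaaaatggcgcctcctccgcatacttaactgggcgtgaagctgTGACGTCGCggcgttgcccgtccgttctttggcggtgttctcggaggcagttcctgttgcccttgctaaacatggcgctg
A match is a description of the letters only. The CCAAT box, searched as CCAAT on both strands, was in 22 of the 42 (52.4%), against 37.5% of all promoters. Nfe2l1 and Nfe2l2, which encode Nrf1 and Nrf2, had differences of −0.04 (SE 0.05) and 0.08 (SE 0.09).

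Of the 5 immunoproteasome genes, 2 were below 0 and 3 above, with a median of 0.01. None had an unadjusted p under 0.05, where 9.19% of all genes were lower and 3.96% higher. All 5 overlapped between the groups, where 20.1% of all genes did not. With only 5 genes, these counts do not set the immunoproteasome apart from all genes.
Psmb8, which takes the place of Psmb5, was at −0.04, 0.24 and −0.08 in control samples 1 to 3 and at 0.16, −0.19 and 0.04 in SNI samples 1 to 3, with a difference of −0.03 (SE 0.11, limma adjusted p = 0.930, 95% confidence interval −0.30 to 0.23). Its values were spread alike within both groups (SD 0.18 in each, n = 3). Psmb9, which takes the place of Psmb6, was at −0.03, −0.07 and 0.44 in the control samples and at 0.03, −0.11 and 0.05 in the SNI samples. Control sample 3 alone set its difference of −0.12 (SE 0.13, adjusted p = 0.730), which was 0.04 without that sample. Psmb10, which takes the place of Psmb7, was at −0.0010, −0.20 and 0.0010 in the control samples and at −0.14, 0.08 and 0.0051 in the SNI samples, with a difference of 0.05 (SE 0.08, adjusted p = 0.845). Its lowest value was that of control sample 2, without which the difference was −0.02.
Psme1 and Psme2 form the activator ring that interferon induces. Psme1 had a difference of 0.01 (95% confidence interval −0.14 to 0.16), with probe sets at −0.10 and 0.13. The first had every SNI sample below every control sample, and in the second control sample 1 was at −0.32. Psme2 had a difference of 0.04 (95% confidence interval −0.09 to 0.17). The intervals of the 5 genes thus left room for differences of −0.42 to 0.24.

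Set against the core, the mean of the 5 immunoproteasome genes minus that of the 13 core genes was 0.04 ± 0.07 for SNI and −0.08 ± 0.08 for control samples (SD, n = 3 each), and the groups overlapped. Psmb10 minus its counterpart Psmb7 was −0.0054, 0.10 and 0.02 in the SNI samples and −0.16, −0.22 and −0.17 in the control samples. This was a difference of 0.22 with no overlap. In control sample 2 the value came mostly from a low Psmb10 (−0.20, with Psmb7 at 0.02). In control samples 1 and 3 it came from Psmb7 (0.16 and 0.17). No share over other pairs of genes was computed. Psmb8 minus Psmb5 overlapped, with a difference of −0.03.
The core of the interferon-stimulated response element, where interferon regulatory factors bind, was searched as GAAANNGAAA on both strands. It was found in 3 of the 5 immunoproteasome promoters, Psmb8, Psmb10 and Psme2, in 4 of the 37 other members matched (Psma4, Psmb3, Psmd7 and Psmg4), and in 3.92% of all promoters. Those 3 are shown, in the same stretch and direction as above, because they are the immunoproteasome genes that hold the core: Psmb8 (chr20:4657012-4657161, minus strand), Psmb10 (chr19:50743273-50743422, minus strand) and Psme2 (chr15:33052732-33052881, minus strand), with the core in capitals. In Psmb8 it lies on the opposite strand.
Psmb8: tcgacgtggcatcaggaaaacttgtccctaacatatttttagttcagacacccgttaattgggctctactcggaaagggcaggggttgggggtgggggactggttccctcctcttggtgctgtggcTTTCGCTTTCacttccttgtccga
Psmb10: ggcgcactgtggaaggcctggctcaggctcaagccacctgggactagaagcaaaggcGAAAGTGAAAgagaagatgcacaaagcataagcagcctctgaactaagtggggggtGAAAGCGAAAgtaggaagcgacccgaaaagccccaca
Psme2: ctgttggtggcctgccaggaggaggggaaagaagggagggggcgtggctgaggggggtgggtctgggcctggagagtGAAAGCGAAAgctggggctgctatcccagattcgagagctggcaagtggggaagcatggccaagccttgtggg
The promoter of Psmb9 holds no such core in the window. It overlaps by 44 bases that of Tap1, which encodes a transporter of class I peptides and starts 457 bases away in the opposite direction. The window of Tap1 holds the core at −121 from its own start, between both starts but outside the window of Psmb9. Tap1 had a difference of −0.03 (SE 0.07).
Of 16 genes of class I presentation and interferon signalling, 15 were measured. Of these, 8 were below 0 (54.8% of all genes) and 7 above, with a median of −0.01. At an unadjusted p under 0.05, 2 were lower (9.19% of all genes) and 1 was higher (3.96%). All SNI samples lay under all control samples for 3 (13.7% of all genes). With only 15 genes, these counts do not set the list apart from all genes. The lower genes were Canx, an ER chaperone (−0.17, SE 0.05), and Ifngr2, a chain of the interferon gamma receptor (−0.23, SE 0.08). The higher gene was B2m, the light chain of class I (0.18, SE 0.07, groups overlapping).

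**Figure D3:**
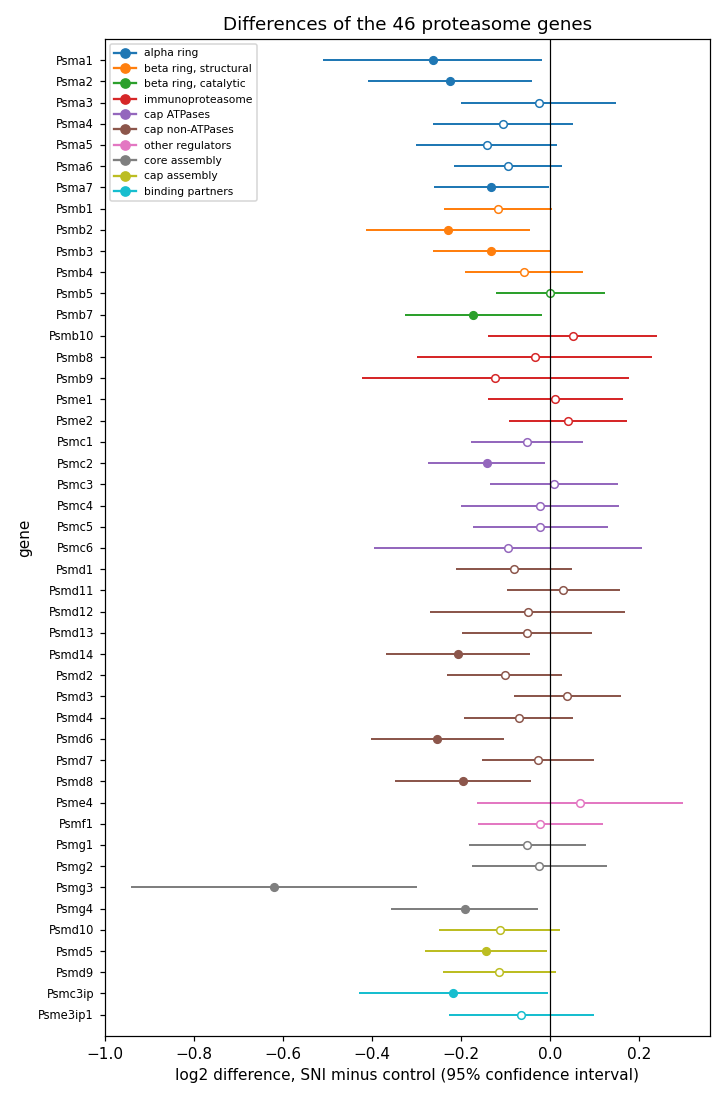
Log2 difference, SNI minus control, of each of the 46 proteasome genes (rows, colored by role) with its 95% confidence interval from limma; filled points have an unadjusted p under 0.05. The 14 filled points all lie left of 0, none belongs to the immunoproteasome, and Psmg3 at −0.62 stands furthest left.

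In the regulatory cap, 14 of 17 genes were below 0 (54.8% of all genes), with a median of −0.05, and 4 were lower at an unadjusted p under 0.05 (9.19% of all genes). Of the 6 ATPases, which unfold the substrate and open the core, Psmc2 alone had an unadjusted p under 0.05. It was at 0.12, 0.03 and 0.16 in control samples 1 to 3 and between −0.05 and −0.03 in the SNI samples, a difference of −0.14 (SE 0.06, limma adjusted p = 0.335) without overlap. The other ATPases ran from −0.10 (Psmc6) to 0.0081 (Psmc3), with overlapping groups, and Psmc1 was at −0.05. Of the ATPases, Psmc6 spread most among the controls, at 0.26, −0.27 and 0.19. Probe sets differed in sign for Psmc4 (0.07 and −0.12) and Psmc6 (0.02, −0.25 and −0.06). They did so for 6 of the 9 members with several probe sets.
Of the 11 non-ATPase subunits, 9 were below 0 and 6 had all SNI samples under all control samples (13.7% of all genes). Psmd6, a subunit of the lid, was at 0.14, 0.06 and 0.25 in the control samples and at −0.14, −0.12 and −0.06 in the SNI samples. It had the smallest p of all core and cap subunits, with a difference of −0.25 (SE 0.06, adjusted p = 0.216), and was at −0.16 against control sample 2 alone. Psmd8, also of the lid, was at 0.12, 0.04 and 0.24 in the control samples and at −0.06, −0.04 and −0.10 in the SNI samples, with a difference of −0.20 (SE 0.07, adjusted p = 0.281). In both genes control sample 3 was the highest and control sample 2 the closest to the SNI samples.
Psmd14, the deubiquitinase of the lid, was lower by the mean of its 3 probe sets (−0.21, SE 0.07, adjusted p = 0.281). They stood at −0.09, −0.24 and −0.29, and the last had all SNI samples (−0.15 to −0.10) under all control samples (0.10 to 0.25). The scaffold subunits Psmd1 and Psmd2 were at −0.08 and −0.10 and the ubiquitin receptor Psmd4 at −0.07, each without overlap and none with an unadjusted p under 0.05. Psmd11 (0.03) and Psmd3 (0.04) were above 0.

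The assembly chaperones held the largest difference of all 46 genes. All 7 were below 0 (54.8% of all genes), with a median of −0.11. At an unadjusted p under 0.05, 3 were lower (9.19% of all genes), and 5 had all SNI samples under all control samples (13.7% of all genes). Their mean was 0.17, 0.13 and 0.05 in control samples 1 to 3 and −0.06, −0.09 and −0.04 in SNI samples 1 to 3. The high values of control samples 1 and 2 rested largely on Psmg3. Without it, the mean of the other 6 was 0.09, 0.04 and 0.04 in the control samples, with control samples 2 and 3 level, and between −0.08 and −0.03 in the SNI samples.
Psmg3 pairs with Psmg4 in a chaperone that builds the alpha ring. It was at 0.63, 0.63 and 0.10 in the control samples and at −0.26, −0.14 and −0.10 in the SNI samples. The difference was −0.62 (SE 0.14, 95% confidence interval −0.94 to −0.30, limma adjusted p = 0.200), which is 0.65 times the control level, and Psmg3 ranked 143 of 14217 genes by p. Control sample 3 lay apart from the other 2, and without it the difference was −0.80 (adjusted p = 0.0551). Psmg3 kept an unadjusted p under 0.05 in all 13 refits with another normalization, gene value, test, block or covariate or with 1 sample left out, between −0.86 and −0.53, and its adjusted p lay between 0.0551 and 0.577 there. It is read by 1 probe set.
Psmg4 was at 0.09, 0.11 and 0.03 in the control samples and at −0.03, −0.25 and −0.07 in the SNI samples, with a difference of −0.19 (SE 0.07, adjusted p = 0.317) and no overlap. Psmg1 and Psmg2, the other pair for the alpha ring, overlapped and were at −0.05 and −0.02.
The chaperones of the cap base each bind certain ATPases and leave before the cap is complete. Psmd5 was at −0.15 (SE 0.06, adjusted p = 0.343), Psmd9 at −0.11 (SE 0.05, adjusted p = 0.417) and Psmd10, also known as gankyrin, at −0.11 (SE 0.06, adjusted p = 0.450). The probe sets of Psmd9 stood at −0.19, without overlap, and at −0.04, with overlap. In each of the 3 all SNI samples lay under all control samples. For Psmd9 control sample 2 was the highest (0.11) and for Psmd10 control samples 1 and 2 (0.14 and 0.13), and against control sample 2 alone they were at −0.17 and −0.15.
The start regions of Psmg3 (chr12:19923158-19923307, plus strand) and Psmd9 (chr12:39018245-39018394, minus strand) are shown as those of the chaperones with the largest difference and with most matches. Psmg3 holds neither core in its window, and Psmd9 holds that of the antioxidant response element on each strand, in capitals.
Psmg3: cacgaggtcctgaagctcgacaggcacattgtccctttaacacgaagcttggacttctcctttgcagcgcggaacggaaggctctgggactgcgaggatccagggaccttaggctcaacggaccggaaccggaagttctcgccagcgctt
Psmd9: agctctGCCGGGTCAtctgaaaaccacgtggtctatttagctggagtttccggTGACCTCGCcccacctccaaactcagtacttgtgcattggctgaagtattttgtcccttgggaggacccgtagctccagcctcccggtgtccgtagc

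**Figure D4:**
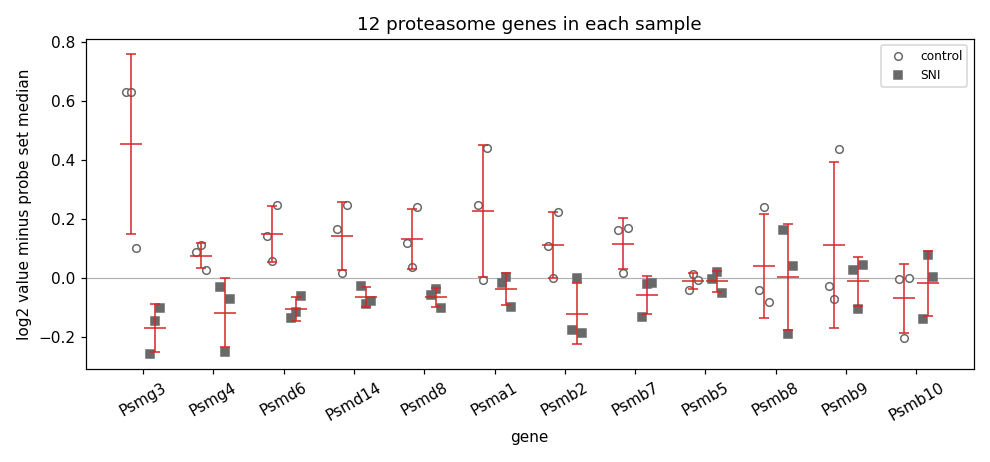
Log2 value relative to the probe set median (y axis) for 12 proteasome genes (x axis) in each sample. Open circles are control samples 1 to 3 from left to right, filled squares SNI samples 1 to 3, bars the mean and error bars the SD. Psmg3 separates control samples 1 and 2 (0.63) from the SNI samples (−0.26 to −0.10), Psma1 is raised in control samples 1 and 3 alone, and Psmb5, Psmb8, Psmb9 and Psmb10 overlap.

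Regulators outside the cap did not lean one way. Psme4, an activator found on nuclear proteasomes, was at −0.26, −0.01 and 0.13 in control samples 1 to 3, with a difference of 0.07 (SE 0.10). Psmf1, an inhibitor in the test tube, was at −0.02 (SE 0.06). Of the 2 binding partners, Psmc3ip, a factor of meiotic recombination, was at −0.22 (SE 0.09, limma adjusted p = 0.360) with overlapping groups, SNI sample 1 at −0.35 and SNI sample 3 at 0.0012. Psme3ip1 was at −0.07 (SE 0.07).

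Of 31 genes that work with the proteasome, which feed, assemble, deubiquitinate or transcribe it, 27 were measured, and 20 of these were below 0 (54.8% of all genes), with a median difference of −0.04. At an unadjusted p under 0.05, 5 were lower (9.19% of all genes) and none higher (3.96%). All SNI samples lay under all control samples for 12 (13.7% of all genes) and above them for none (6.39%). The smallest p values were those of Ufd1, a cofactor of the segregase Vcp (−0.21, SE 0.06, limma adjusted p = 0.216), Akirin2, which brings proteasomes into the nucleus (−0.24, SE 0.08, adjusted p = 0.275), and Usp14, a deubiquitinase bound to the cap (−0.15, SE 0.05, adjusted p = 0.313). Akirin2 was at 0.11, 0.03 and 0.25 in the control samples, in the same order as Psmd6 and Psmd8. Sem1 (−0.11), a cap subunit, and Adrm1 (0.06), a ubiquitin receptor of the cap, whose names the rule does not take, did not pass.

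**Figure D5:**
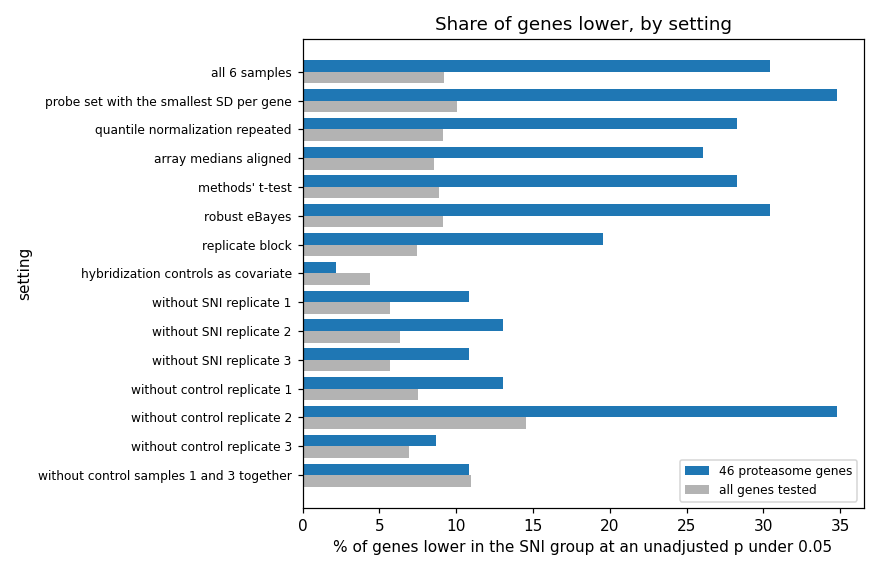
Percentage of genes lower in the SNI group at an unadjusted p under 0.05 (x axis), for the 46 proteasome genes and for all genes tested, in the fit of all 6 samples and in alternatives (y axis). Single probe sets and the stricter and looser thresholds are not shown. The share is 30.4% against 9.19% with all samples, 8.7% against 6.96% without control sample 3, and 10.9% in both without control samples 1 and 3.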

How the data were processed

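Messenger RNA was measured on Affymetrix GeneChip rat genome arrays in 6 samples, grouped by their labels. The authors applied RMA, log2 transformation and quantile normalization. The deposited log2 values also have each probe set's median subtracted (every median was 0 within 4.78e-07). No description of this step was found, and the authors' software versions are not given in the sources used. No level or signal over background can therefore be read, and no filter on dim probe sets was applied. The number of arrays limits the precision.

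After 57 array controls were left out, 20826 of 31042 probe sets carried 1 gene symbol, 436 several and 9780 none in the platform annotation. Those with 1 symbol were averaged per gene. Each gene was fitted with lmFit and eBayes of limma 3.58.1 in R 4.3.3, SNI minus control, two-sided, without covariates, with Benjamini-Hochberg adjustment over 14217 genes. The fit was tested on simulated data. The figures used matplotlib 3.10.9 in Python 3.11.15. RefSeq promoters (GRCr8) were matched by gene ID for 42 of the 46 members, and not for Psma7, Psmd6, Psmd12 and Psmd14.

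The members, the gene lists and the tests were chosen with earlier results of these data known, and no list was tested as a whole. Named are all immunoproteasome and constitutive catalytic genes, the 2 members with the smallest p in each other role, and the 3 such genes of each of the 2 other lists. No member met the rule's other conditions (an adjusted p under 0.05, or probe sets on opposite sides of 0 and over 0.3 apart). Other members were named after their values were seen. Alternatives were another gene value, single probe sets, the methods' t-test, robust eBayes, array medians aligned, a repeat of the quantile normalization, the replicate number as a block, the hybridization controls as a covariate, stricter and looser thresholds and each sample left out. Control samples 1 and 3 were left out together after the data were seen.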

Additional observations from a re-analysis of the deposited data

How the results depend on the processing

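The median difference of the 46 proteasome genes lay between −0.099 and −0.064 under all alternatives, and no member passed an adjusted p of 0.05 in any. The count of members lower at an unadjusted p under 0.05 was less stable. From 14 it went to 9 with the replicate number as a block, 1 with the hybridization controls as a covariate, 2 at an unadjusted p under 0.01, 5 without control samples 1 and 3, and 4 to 16 with 1 sample left out (4 without control 3; 5 without SNI 1 or SNI 3; 6 without SNI 2 or control 1). Over all genes, the deviations of same-numbered samples from their group means correlated at −0.022, −0.0074 and −0.045. These values cannot settle whether the numbers pair the samples. 1 member was higher with the probe set of smallest SD (Psmb5), with the covariate (Psme4) and without control samples 1 and 3 (Psmc6). Over all genes, the adjusted calls went from 0 to 10 with every probe set tested on its own, 2 with the covariate, 3 without control samples 1 and 3, and 0 to 4 with 1 sample left out. Genes lower at an unadjusted p under 0.05 (1307 of 14217) became 628 with the covariate and 432 at the stricter limit. With 1 sample left out they ran from 809 to 2072. Genes higher (563) became 157 at the stricter limit, 935 without control samples 1 and 3, and 335 to 1213 with 1 sample left out. With every probe set tested on its own, the counts are of 31042 probe sets, not genes: 10 adjusted calls, 2318 lower and 1737 higher. Those counts therefore cannot be compared directly with the counts of genes. Some signs turned. With the covariate Psmb9 was at 0.074, Psme2 at −0.019, Psmb5 at 0.049, Psmc1 at 0.020 and Psmc3ip at 0.019. Without control samples 1 and 3 Psmb9 was at 0.059, Psme1 at −0.067, Psme2 at −0.014 and Psmf1 at 0.010. With the probe set of smallest SD Psme1 was at −0.10 and Psmb5 at 0.11, and with array medians aligned Psmb5 was at 0.0034. With 1 sample left out Psmb8 ran from −0.11 to 0.066, Psmb9 from −0.21 to 0.038, Psmb10 from −0.017 to 0.11, Psme1 from −0.045 to 0.050, Psmb5 from −0.016 to 0.019, Psme4 from −0.039 to 0.15 and Psmf1 from −0.043 to 0.012. With the covariate, which did not overlap between the groups, SEs were larger (Psmb2 0.18 against 0.08). The cause of these moves was not tested. No filter on dim probe sets could be tried with centred values.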
